A study of Arabidopsis thaliana with 29 samples.

Results

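The 4 SEPALLATA genes of Arabidopsis thaliana (SEP1, SEP2, SEP3 and SEP4) and the related genes AGL6 and AGL13 were followed through a set of Polycomb group (PcG) mutants, at the levels of transcript and of H3K27me3, the histone mark laid down by Polycomb repressive complex 2. The 6 genes were taken by their locus identifiers (AT5G15800, AT3G02310, AT1G24260, AT2G03710, AT2G45650 and AT3G61120) from the 33602 genes of the count tables, and all 6 passed the filter on low counts. SEP3 and SEP4 reached the level of the filter (0.359 CPM, counts scaled to the gene total of the library) in both Col-0 libraries, whereas SEP1, SEP2, AGL6 and AGL13 passed through the mutants in which they were higher. Seedlings aged 2 weeks, in the Col-0 background, were profiled in 14 RNA-seq libraries and 10 H3K27me3 ChIP-seq peak lists. Each of 7 genotypes had 2 RNA-seq libraries.

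The genotypes were the wild type Col-0, clf-29 and the line labelled swn (single mutants of the PRC2 methyltransferases CURLY LEAF and SWINGER), the double mutant clf-29swn-21, the LHP1 mutants tfl2-2 and lhp1-6 (1 library of each, 2 independent alleles treated as a group), the double mutant atbmi1a,b and the double mutant atring1a,b. AtBMI1 and AtRING1 are ring finger proteins of Polycomb repressive complex 1, and LHP1 is a chromodomain protein that binds H3K27me3. Plants were kept at 21 °C for replicate 1 of the wild type and of 4 mutant genotypes and for both LHP1-mutant RNA libraries, and at 22 °C for replicate 2, the lhp1-6 ChIP sample and both swn libraries. clf-29swn-21 was raised on Murashige and Skoog medium and taken as whole plants according to the methods, whereas the other genotypes grew in soil. Peak lists were used from atring1a,b, atbmi1a,b, clf-29 and Col-0 (2 each) and from tfl2-2 and lhp1-6 (1 each). By the labels the tissue of all samples was without roots.

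MADS-domain proteins bind DNA as dimers and assemble into larger complexes that specify floral organs. The SEP proteins are the shared partners in these complexes: with AP1, AP3, PI and AG they give sepals, petals, stamens and carpels, and plants without SEP1, SEP2 and SEP3 make flowers of sepal-like organs. SEP4 acts with the other SEP genes in sepals and in the floral meristem. AGL6 has roles in flowering and lateral organ development, and AGL13 is known from ovules and anthers. In vegetative tissue, floral MADS genes are known targets of PcG repression.

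The coding sequences show how far the members can be told apart in reads. SEP1 and SEP2 were 81.8% identical over the aligned coding length and AGL6 and AGL13 73.2%, while the other 13 pairs were between 55% and 62.9%. The first 60 coding bases, which start the conserved MADS box, are given below because all 6 members share this stretch, with capitals at the bases that differ from SEP3 (coordinates on the TAIR10.1 assembly, sequence credited to RefSeq):
SEP1 (chr5:5153708-5153767, minus strand): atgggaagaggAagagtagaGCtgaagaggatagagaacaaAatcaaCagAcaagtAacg
SEP2 (chr3:466628-466687, minus strand): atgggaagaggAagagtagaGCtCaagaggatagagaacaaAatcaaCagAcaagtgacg
SEP3 (chr1:8595803-8595862, minus strand): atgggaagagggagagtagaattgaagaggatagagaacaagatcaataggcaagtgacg
SEP4 (chr2:1129622-1129681, plus strand): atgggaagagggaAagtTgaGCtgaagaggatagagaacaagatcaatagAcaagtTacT
AGL6 (chr2:18804453-18804512, plus strand): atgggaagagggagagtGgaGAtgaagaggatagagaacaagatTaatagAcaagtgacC
AGL13 (chr3:22620407-22620466, minus strand): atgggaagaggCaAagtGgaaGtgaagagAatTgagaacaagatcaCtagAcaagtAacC
Between 6 bases (AGL6) and 10 bases (AGL13) of the 60 differed from SEP3. No window of 50 exonic bases in any of the 6 genes occurred anywhere else in the genome. SEP1 overlaps the convergent gene AT5G15790 by 100 bp at its 3′ end, so SEP1 reads from that end were open to ambiguity at counting. AT5G15790 had a mean of 8.91 CPM in Col-0 and 14.6 CPM in the LHP1 mutants.

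The sequenced depth lay between 17277027 and 36205758 counts in genes per library (median 27823570.5). The mutated genes checked the labels in part. CLF stood at 0.434 to 0.689 CPM in clf-29, against 27.8 to 37.4 CPM in Col-0, and LHP1 was at 0 and 1.71 CPM in the LHP1 mutants. SWN was not lower in the libraries labelled swn (87.2 and 88.2 CPM) than in Col-0 (46.8 and 68.2 CPM), nor in clf-29swn-21 (115 and 131 CPM). In atbmi1a,b AtBMI1B was at 4.45 and 4.77 CPM against 11.8 and 16.0 CPM in Col-0, whereas AtBMI1A, at 14.1 and 22.1 CPM, was not below either Col-0 library. AtRING1A counts in atring1a,b were far above Col-0 (631 and 813 CPM), whereas AtRING1B was at 1.72 and 0.678 CPM against 7.83 and 14.9 CPM in Col-0. CLF was also low in clf-29swn-21 (1.72 and 2.6 CPM). The counts of SWN, AtBMI1A and AtRING1A thus did not check those mutations, while those of CLF, LHP1, AtBMI1B and AtRING1B were lower. The paper checked the genotype of each sample from its RNA-seq reads, which counts per gene cannot repeat. The 2 swn libraries differed from each other by a chi-square of 1.3 per gene, close to counting error, where the other pairs gave 15.1 to 281. Whether they are separate biological samples cannot be told from the files. The spread behind the p-values was estimated over all 14 libraries, the swn pair included. The p-values of every comparison, not only those of swn, may therefore rest in part on technical spread. Root markers summed to between 27.4 and 108 CPM in clf-29swn-21, with 0 of 19 at 0 counts and 13 of 19 above 1 CPM, and to between 1.4 and 19.2 CPM elsewhere. Leaf markers summed to between 2230 and 3830 CPM in clf-29swn-21 and to at least 10100 CPM in every other library. Growth, harvest and genotype of clf-29swn-21 cannot be told apart.

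SEP4 was the SEPALLATA gene of the wild-type seedling. As CPM per kilobase of exon (RPKM), its level averaged 12.5 ± 4.9 (SD, n = 2) in Col-0, which was 92.8% and 88.5% of the summed RPKM of the 6 genes in the 2 libraries. SEP3 followed at 0.755 ± 0.285 RPKM, then AGL13 at 0.251 ± 0.147, SEP1 at 0.119 ± 0.169, AGL6 at 0.0569 ± 0.02 and SEP2 at 0.0277 ± 0.0392. SEP4 stood far above the rest and SEP3 above AGL13, while neighbours in the order from AGL13 to SEP1, AGL6 and SEP2 overlapped. AGL13 overlapped neither AGL6 nor SEP2, but at 12 and 3 counts against 2 and 2 for AGL6 and 3 and 0 for SEP2. So close to the floor of 3 counts, the order of these genes is not resolved. SEP2 and SEP1 had no count in replicate 2 of Col-0, which allows up to 0.14 CPM (3 counts) there.

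The order was different in the mutants. In bulk tissue, more expressing cells and more RNA per cell cannot be told apart. In clf-29 SEP3 averaged 53.4 ± 25.0 RPKM and made up 55.7% and 77.1% of the summed RPKM of the 6 genes, and SEP4 23.1 ± 6.17 RPKM. In the LHP1 mutants SEP3 (79.4 ± 12.6 RPKM), SEP4 (30.2 ± 1.38), SEP1 (26.6 ± 2.08) and SEP2 (9.91 ± 0.638) were all present. In clf-29swn-21 SEP3 (70.0 ± 30.6 RPKM) and SEP2 (59.2 ± 0.432) led, SEP1 followed (26.5 ± 3.6), and AGL6 (6.08 ± 4.02 RPKM) and SEP4 (4.76 ± 0.858 RPKM) overlapped. SEP4 remained first in swn, atbmi1a,b and atring1a,b. In swn SEP4 held 83.5% and 86.1% of the sum, in atbmi1a,b 79.3% and 72.6%, and in atring1a,b 63% and 61.5%.

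**Figure D1:**
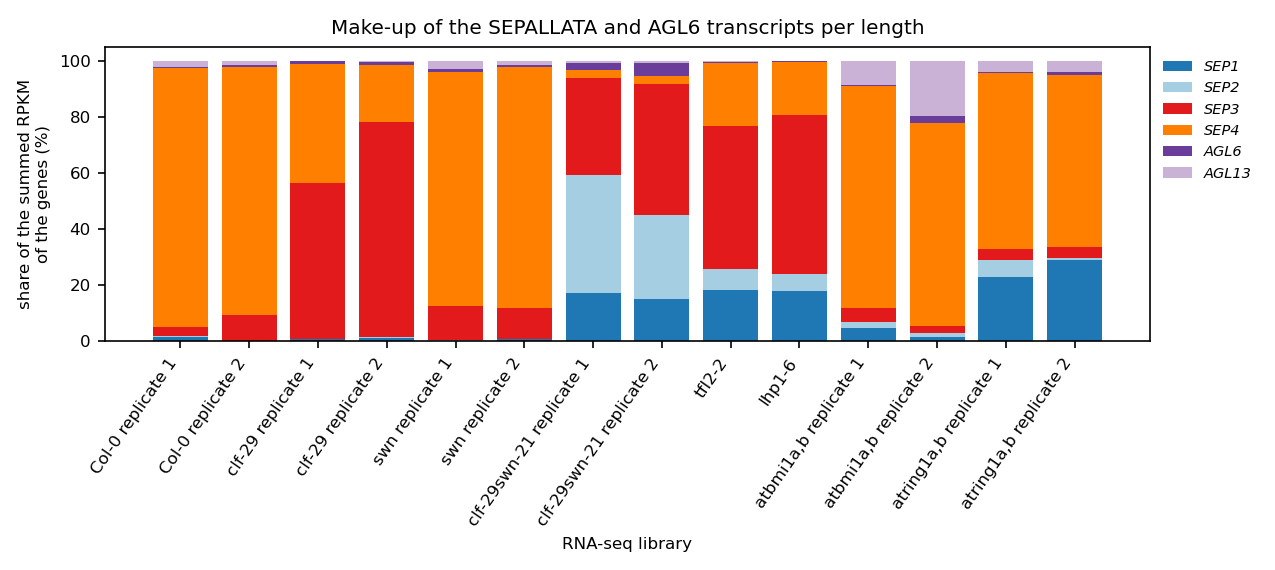
Share of the summed RPKM of the 6 genes taken by each gene (vertical axis, percent), one bar per RNA-seq library. SEP4 held 92.8% and 88.5% in Col-0, SEP3 55.7% and 77.1% in clf-29, and SEP2 42.4% and 30.2% in clf-29swn-21.

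SEP3, the most broadly acting SEP partner, was high in 3 of the mutant groups. Its CPM was 0.704 and 1.22 in Col-0, 45.4 and 90.3 in clf-29, 89.6 in tfl2-2 and 112 in lhp1-6, and 61.5 and 116 in clf-29swn-21. No library of those mutants overlapped Col-0. SEP3 CPM was 1.93 and 1.72 in swn, 0.387 and 0.108 in atbmi1a,b, and 0.72 and 0.581 in atring1a,b. The atbmi1a,b libraries lay below both Col-0 libraries, 3.76-fold lower in the fit, without passing the test (log2 fold change -1.91 ± 0.6, edgeR adjusted p = 0.321). Libraries did not overlap for 22.2% of all genes in that comparison. SEP3 rose 70.4-fold in clf-29 (log2 fold change 6.14 ± 0.57 SE, edgeR adjusted p = 0.00684), and by a log2 fold change of 6.68 ± 0.58 in the LHP1 mutants (edgeR adjusted p = 0.00626) and 6.37 ± 0.58 in clf-29swn-21 (edgeR adjusted p = 0.000135). The first call was lost when either Col-0 library was left out (log2 fold change 5.74, adjusted p = 0.0626 without replicate 1; 6.55 and 0.0727 without replicate 2), and the adjusted p ranged from 2.86e-28 to 1 over all 13 alternatives. Within growth temperature, the clf-29 libraries stood above their own Col-0 library by log2 ratios of 5.25 at 21 °C and 5.73 at 22 °C on a scale of log2(CPM + 0.5). SEP3 was higher in clf-29 than in atbmi1a,b (8.05 ± 0.64, edgeR adjusted p = 0.000468) and than in swn (5.2 ± 0.54, edgeR adjusted p = 0.0183), and the latter call was lost without clf-29 replicate 2 (adjusted p = 0.068) and without either swn library (0.439 and 0.613). clf-29 and the LHP1 mutants differed by a log2 fold change of -0.54 ± 0.44, which missed the threshold (adjusted p = 1), and their libraries overlapped.

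SEP1 and SEP2, the close pair, had another pattern than SEP3 in clf-29. SEP1 CPM was 0.366 and 0 in Col-0, 0.545 and 1.64 in clf-29, 38.5 in tfl2-2, 43.0 in lhp1-6, 36.8 and 44.6 in clf-29swn-21, and 4.98 and 5.08 in atring1a,b. The LHP1 mutants and clf-29swn-21 were highest, atring1a,b lay between, and clf-29, swn and atbmi1a,b stayed at or below 1.64. SEP2 CPM was 0.0845 and 0 in Col-0, 0.0574 and 0.241 in clf-29, 15.8 in tfl2-2, 14.4 in lhp1-6, 90.7 and 89.8 in clf-29swn-21, and 1.27 and 0.145 in atring1a,b. Against Col-0, SEP1 rose by a log2 fold change of 7.51 ± 1.04 in the LHP1 mutants (edgeR adjusted p = 0.0408) and 7.38 ± 1.03 in clf-29swn-21 (adjusted p = 0.000826). SEP2 rose in the same groups (edgeR adjusted p = 0.0343 and 0.000258). Since SEP2 had 3 counts in all in Col-0, its fitted fold changes depend on the prior count. Its ratio of summed counts at equal depth was 286 in the LHP1 mutants (95% exact interval 97.8 to 1390, counting error only) and 1710 in clf-29swn-21 (586 to 8310). In the LHP1 mutants the SEP1 call was lost without tfl2-2 (adjusted p = 0.174), without lhp1-6 (0.229) and without Col-0 replicate 2 (0.146). The SEP2 call was lost without any 1 of the 4 libraries (adjusted p from 0.105 to 0.206). SEP1 and SEP2 were 37.4-fold and 107-fold lower in clf-29 than in the LHP1 mutants, but neither passed the edgeR test (adjusted p = 0.206 and 0.118). Their libraries did not overlap, nor did those of 40.1% of all genes in this comparison.

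In atring1a,b, SEP1 was above Col-0 in both libraries by a log2 fold change of 4.47 ± 0.96, which missed the threshold (edgeR adjusted p = 0.0621; 1.78e-05 in DESeq2, and up to 0.535 over 13 alternatives). The libraries did not overlap, nor did those of 28.4% of all genes in this comparison. The ratio of summed SEP1 counts was 22.0 (95% exact interval 12.6 to 41.8, counting error only). SEP2 in atring1a,b gave 3.67 ± 1.14 (edgeR adjusted p = 0.218) and its 2 libraries differed, at 46 and 3 counts. Against atbmi1a,b, SEP1 in atring1a,b was higher by a log2 fold change of 4.27 ± 0.93 without passing the edgeR test (adjusted p = 0.162). SEP1 in clf-29swn-21 was 7.5-fold above atring1a,b (edgeR adjusted p = 0.0244), a call lost without any 1 of the 4 libraries (0.0706 to 0.127).

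SEP4, which acts in sepals and the floral meristem, was lowered in 2 of the mutants. SEP4 CPM was 23.2 and 13.1 in Col-0, 39.9 and 27.2 in clf-29, 45.4 in tfl2-2, 42.5 in lhp1-6, 6.05 and 7.81 in clf-29swn-21, 6.77 and 3.5 in atbmi1a,b, 12.9 and 10.3 in atring1a,b, and 15.4 and 15.3 in swn. It fell by 1.89 on the log2 scale in atbmi1a,b (SE 0.36, edgeR adjusted p = 0.0481) and by 1.59 in clf-29swn-21 (SE 0.36, adjusted p = 0.00875). The higher levels in clf-29 (log2 fold change 0.87 ± 0.35) and in the LHP1 mutants (1.21 ± 0.35) did not pass the test (edgeR adjusted p = 1 and 0.48), although the libraries of both groups lay above both Col-0 libraries. The atbmi1a,b call was lost without Col-0 replicate 1 (adjusted p = 0.212), without atbmi1a,b replicate 1 (0.0629) and without its replicate 2 (0.293), over a range of 0.000124 to 0.874 in 13 alternatives. With the replicate block it was 0.0618. The clf-29swn-21 call was lost without clf-29swn-21 replicate 1 (0.0707) and in a fit of the compared libraries alone (0.0783), over a range of 0.000166 to 0.0783 in 12 alternatives. SEP4 was 5.47-fold lower in clf-29swn-21 than in clf-29 (edgeR adjusted p = 0.00116).

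AGL6 was low outside clf-29swn-21, and AGL13 was low in all libraries. AGL6 CPM was 0.0563 and 0.0935 in Col-0, 0.689 and 1.4 in clf-29, 0.602 in tfl2-2, 0.706 in lhp1-6, and 4.26 and 11.7 in clf-29swn-21. It rose in clf-29swn-21 (log2 fold change 6.53 ± 0.85, edgeR adjusted p = 0.000585), and in clf-29 it gave 3.74 ± 0.82 (adjusted p = 0.549) and in the LHP1 mutants 3.05 ± 0.82 (adjusted p = 0.394). With growth temperature as a term the latter was 3.68 ± 0.48 and passed (edgeR adjusted p = 0.0269, the lowest of 12 alternatives, which reached 1). The clf-29 libraries still lay above both atbmi1a,b libraries, at 0.0276 and 0.108 CPM (edgeR adjusted p = 0.0493). Libraries did not overlap for 36.0% of all genes there. The AGL6 call was lost without any 1 of those 4 libraries (log2 fold changes 3.2 to 5.06). AGL13 CPM stayed between 0.0287 and 1.22 in all 14 libraries. It reached 1.07 and 1.22 in clf-29swn-21 (log2 fold change 2.0 ± 0.72, edgeR adjusted p = 0.0577). The groups did not overlap there, nor did those of 62.3% of all genes. AGL13 was higher in clf-29swn-21 than in clf-29 (log2 fold change 3.64 ± 0.83, edgeR adjusted p = 0.00862). That call was lost without clf-29 replicate 1 (log2 fold change 2.77).

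**Figure D2:**
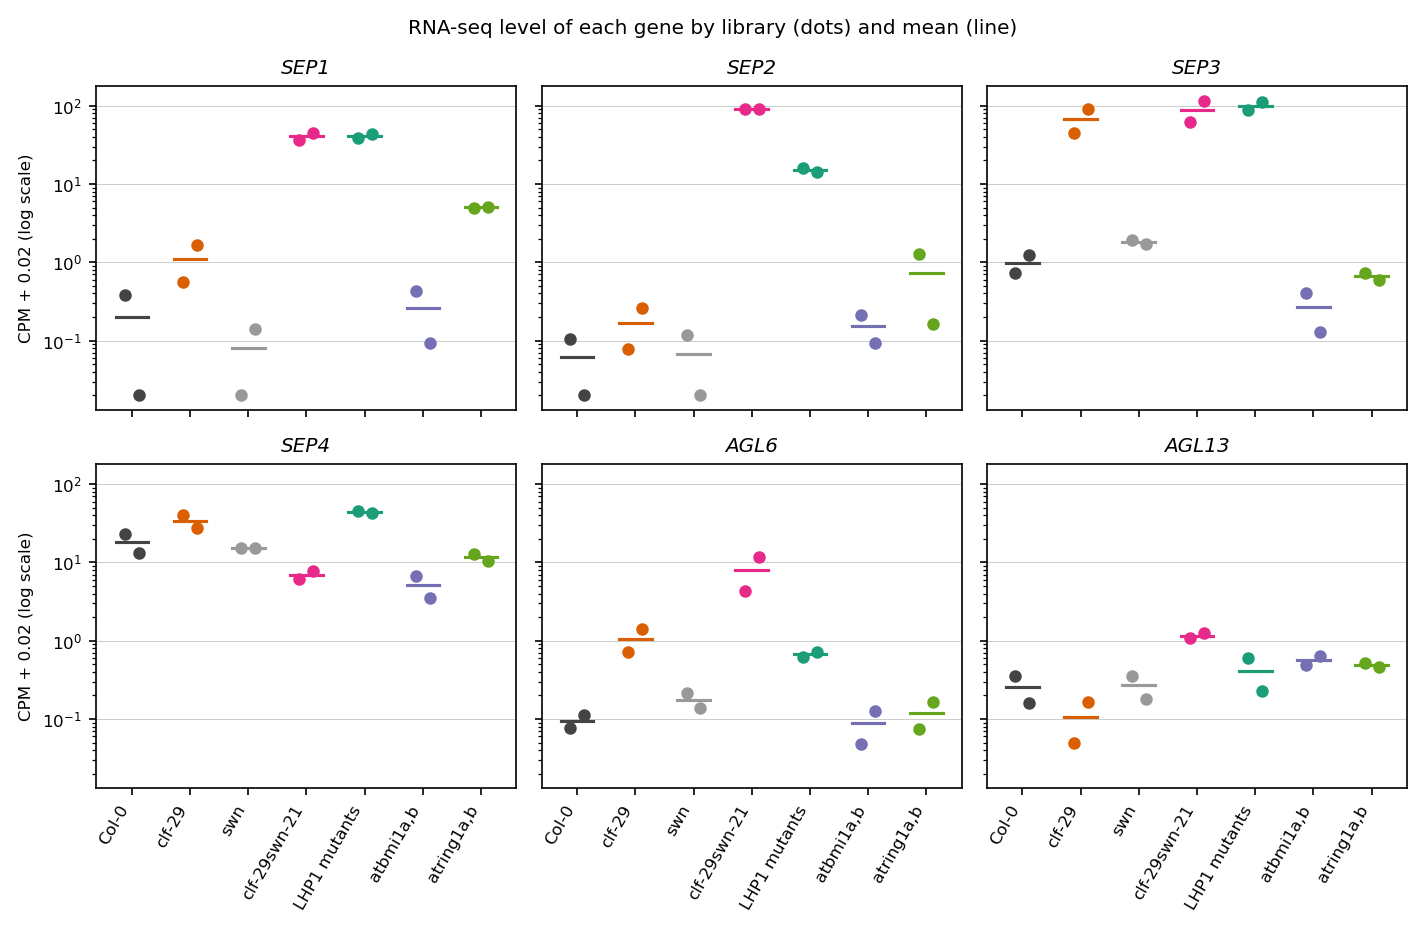
CPM plus 0.02 on a log axis for the 6 genes (panels) in the 7 genotypes (horizontal axis). Each dot is one of the 2 libraries of a genotype and the line is their mean. SEP3 stands at 45.4 to 116 CPM in clf-29, the LHP1 mutants and clf-29swn-21, whereas SEP4 is lowest in atbmi1a,b and clf-29swn-21.

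**Figure D3:**
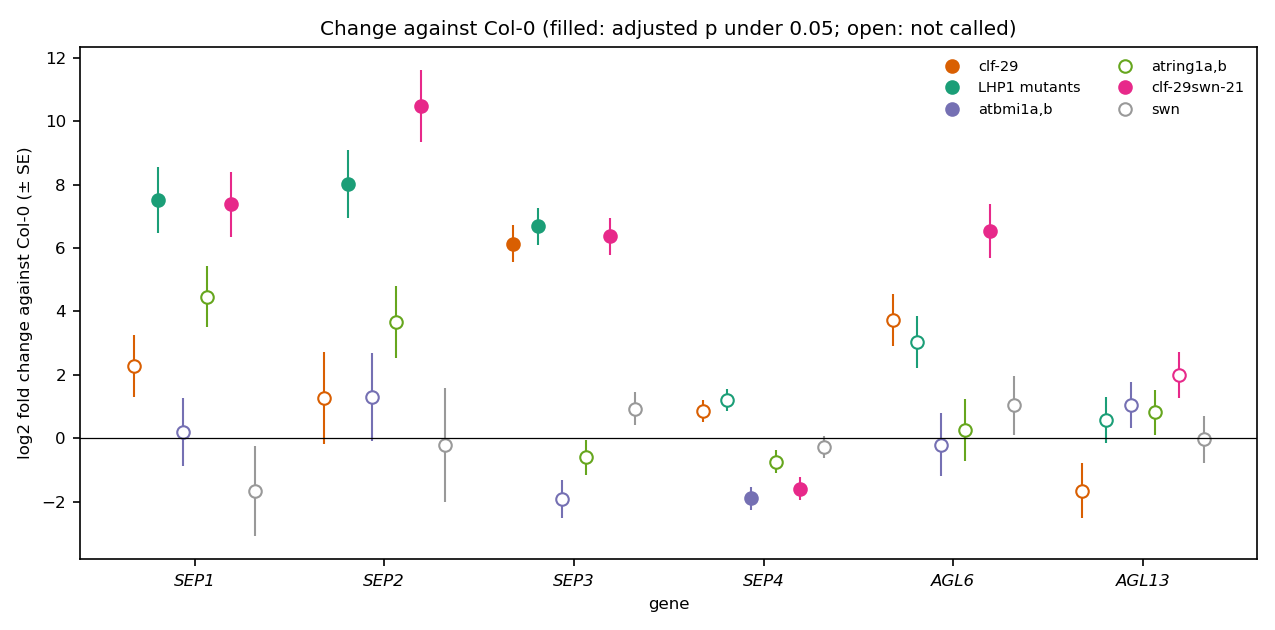
Fitted log2 fold change against Col-0 (vertical axis) with its SE (bars) for each gene and mutant group. Filled points passed an adjusted p under 0.05. The filled points are SEP3 in 3 mutant groups, SEP1 and SEP2 in the LHP1 mutants and clf-29swn-21, AGL6 in clf-29swn-21, and SEP4, which fell, in atbmi1a,b and clf-29swn-21.

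Counted against the whole transcriptome, clf-29 differed from Col-0 in 1 of the 6 members by adjusted p, where 0.0272% of the 22060 genes tested passed. The LHP1 mutants differed in 3 members (0.0997% of genes), atbmi1a,b in 1 (0.961%) and clf-29swn-21 in 5 (32.6%), 4 of them higher. In atring1a,b edgeR called 0 members (1.4% of genes), with 2 at an unadjusted p under 0.05 and 2 by DESeq2 (826 of 27703 genes). In swn edgeR called 0 (0% of genes), with 0 at an unadjusted p under 0.05 and 0 by DESeq2 (46 of 27703 genes). Between mutants, clf-29 differed from atbmi1a,b in 3 members (1.7% of genes) and from swn in 1 (0.0227%), and clf-29swn-21 from clf-29 in 5 (34.5%) and from atring1a,b in 4 (27.3%). The share in clf-29swn-21 is large for all genes, so its members' count stands beside a high background. SEP1, SEP2, AGL6 and AGL13 passed the filter through mutants in which they were higher. Their calls are therefore not independent of the filter. Between clf-29 and the LHP1 mutants edgeR called 0 members (0.00907% of genes), with 3 at an unadjusted p under 0.05 and 2 by DESeq2 (145 of 27703 genes). Between atring1a,b and atbmi1a,b it called 0 (0.154%), with 3 at an unadjusted p under 0.05 and 1 by DESeq2 (435 of 27703 genes). The share of all genes at an unadjusted p under 0.05 alone was not counted.

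A looser criterion, modelled on that of the study, was a log2 fold change beyond 1 with an unadjusted p under 0.05, both taken here from edgeR, whereas the study used DESeq and does not state whether its p was adjusted. By it, the members that differed from Col-0 were 3 in clf-29 (2.55% of all genes), 5 in the LHP1 mutants (3.94%), 2 in atbmi1a,b (5.5%), 2 in atring1a,b (7.61%), 6 in clf-29swn-21 (31.8%) and 0 in swn (2.9%). Those in clf-29 were SEP3, AGL6 and SEP1, and all but AGL13 met it in the LHP1 mutants. Between mutants it gave 3 for clf-29 against the LHP1 mutants (3.43%), 4 against atbmi1a,b (9.45%), 4 against swn (6.26%), 3 for atring1a,b against atbmi1a,b (6.55%), 5 for clf-29swn-21 against clf-29 (32.9%) and 4 against atring1a,b (29%). The median log2 fold change of the 6 members was 1.78 in clf-29, 4.86 in the LHP1 mutants, 0.0 in atbmi1a,b, 0.54 in atring1a,b, 6.45 in clf-29swn-21 and -0.12 in swn, against medians of all genes between -0.0422 and 0.0132. The comparisons against Col-0 share its 2 libraries. The limit from the filter on SEP1, SEP2, AGL6 and AGL13 holds for these counts and medians too.

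Other genes of the same pathways were counted in fixed lists, and their counts in clf-29swn-21 stand beside the 32.6% of all genes called there in either direction. Of the 11 floral partner MADS genes 10 were tested, and in clf-29 2 rose: AG, which specifies stamens and carpels, by a log2 fold change of 7.98 ± 0.57 (edgeR adjusted p = 0.00138), and PI, which acts in petals and stamens, by 2.46 ± 0.28 (adjusted p = 0.0318). In the LHP1 mutants 3 rose, AG by 6.07 ± 0.54 (adjusted p = 0.00626), PI by 4.17 ± 0.29 (0.00155) and AP3, the partner of PI, which stood at 8.87 and 9.91 CPM against 0.0845 and 0 in Col-0 (0.0102). PI alone of the 10 rose in atring1a,b (2.95 ± 0.28, edgeR adjusted p = 0.00222), while 0 were called in atbmi1a,b and in swn, where 1 each met the looser criterion. In clf-29swn-21 9 of the 10 rose, among them PI by 8.25 ± 0.33, AP3, at 76.7 and 140 CPM, and AP1, a sepal and meristem identity gene, at 10.5 and 5.32 CPM against 0.0282 and 0 in Col-0. STK, an ovule identity gene, had no count in Col-0 and was at least 471-fold higher in clf-29swn-21 against a floor of 3 counts over the group. The list's median log2 fold change was 3.22 in clf-29, 4.92 in the LHP1 mutants (4.2 with STK at its bound), -0.56 in atbmi1a,b, 0.41 in atring1a,b, 6.72 in clf-29swn-21 and -0.19 in swn.

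Of the 15 tested genes that regulate flowering and the meristem, 0 passed in any of the comparisons of a single mutant, the LHP1 mutants, atbmi1a,b or atring1a,b with Col-0 in edgeR, while by the looser criterion 2 were higher in clf-29, 4 higher in the LHP1 mutants, 2 lower in atring1a,b and 1 lower in swn. In clf-29swn-21 4 rose and 4 fell, with the largest changes in FLC, a repressor of flowering (log2 fold change 2.65 ± 0.65), LFY, a floral meristem identity gene (-2.56 ± 0.76), FD (-2.45 ± 0.66) and SVP (-2.39 ± 0.34). The floral organ factors gave 0 of 12 called by edgeR in the other mutants (1 to 4 each by the looser criterion) and 10 of 12 higher in clf-29swn-21. CRC, a carpel and nectary gene, rose there by 7.21 ± 1.17, and HEC2 stood at 4.33 and 3.3 CPM against 0 and 0.0467 in Col-0. SUP and NZZ had no count in Col-0 and were at least 25.6-fold and 16.8-fold higher there. Of 17 other type II MADS genes tested, 9 rose and 2 fell in clf-29swn-21, including AGL17 by 8.18 and AGL21 by 7.93, ANR1 (16.1 and 13.3 CPM against 0 and 0.0467) and AGL14 (15.1 and 15 CPM against 0.0282 and 0.0467). MAF4 rose in atbmi1a,b (2.09) and in atring1a,b (1.98), and MAF1 fell by 1.18 in atring1a,b. Anther and tapetum markers had 1 of 5 tested called in clf-29swn-21, and 8 of 12 were at 0 counts in Col-0. Root markers rose with the same clf-29swn-21 comparison (7 of 11 tested), and all 6 leaf markers fell, so the part of tissue make-up in these values cannot be told apart from genotype.

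Likeness over the 14 libraries placed the genes in different company. The 3 genes most like SEP3 by Pearson's r of log2(CPM + 0.5) were SWEET10 (0.964), SHP2 (0.959) and AG (0.957). For SEP2 they were AT4G05470 (0.976), AT4G31330 (0.971) and AP3 (0.959), and AT4G05470 (0.925) was also among those of SEP1, with AT1G09812 (0.927) and AT1G03710 (0.917). SEP1 and SEP2 correlated at 0.915, SEP1 and SEP3 at 0.711, and SEP4 with SEP3 at 0.493, with SEP1 at 0.162, with SEP2 at -0.0318, with AGL6 at -0.0946 and with AGL13 at -0.606. SEP4's nearest genes were RLP46 (0.924), RPM1 (0.916) and MLO12 (0.909), AGL6's were AT3G21600 (0.989), AT1G49640 (0.984) and AT4G29570 (0.978), and AGL13's were ORP4C (0.928), AT2G05790 (0.923) and HMGA (0.917). These values describe libraries that share genotypes, growth and depth.

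Most of the nearest genes on either side of the members were not called. AT1G24265, 4267 bp from SEP3, rose in clf-29swn-21 (log2 fold change 1.89 ± 0.25, edgeR adjusted p = 0.000609), and also in atbmi1a,b (log2 fold change 1.45 ± 0.25, edgeR adjusted p = 0.0287) and atring1a,b (1.29 ± 0.25, adjusted p = 0.0393), where SEP3 was not called. AT5G15802, 1990 bp from SEP1, fell by 1.01 (SE 0.22, edgeR adjusted p = 0.0075) in clf-29swn-21. AGL20, which is SOC1, the flowering integrator, lies 918 bp from AGL6 and fell in clf-29swn-21 from a mean of 42.6 CPM to 10.9 CPM (log2 fold change -2.16 ± 0.29, adjusted p = 0.000643), whereas AGL6 rose. In clf-29 and the LHP1 mutants no tested neighbour was called.

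H3K27me3 lay over the bodies of all 6 genes in the peak list of Col-0 replicate 1, where 21.4% of all genes had a peak in the body or in the 1000 bp upstream. The lists of clf-29 replicate 1 (21.3%), tfl2-2 (26.8%), lhp1-6 (23.4%), atbmi1a,b replicate 1 (17.8%) and atring1a,b replicate 1 (35.9%) also held a peak on all 6. The second lists did not repeat this: Col-0 replicate 2 had a peak on SEP4, AGL6 and AGL13 (15.6% of all genes), clf-29 replicate 2 on 5, all but SEP3 (22.7%), atring1a,b replicate 2 on SEP1, AGL6 and AGL13 (10.4%), and atbmi1a,b replicate 2 on 0 (19.1%). The peak files hold no read counts, so values were not weighed by depth. With a score of at least 100 there were 0 members in Col-0 replicate 2 (9.44% of all genes), clf-29 replicate 2 (18.6%) and atring1a,b replicate 2 (3.76%). The respective first lists held 5 (16.8%), 4 (17.8%) and 6 (34.4%), although scores are not on a common scale between lists.

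At SEP3 a peak was listed in samples of genotypes with low and with high SEP3 RNA. In clf-29 replicate 1 a peak covered 99.0% of the SEP3 body, with a score of 698.83 that ranked at the 88.5 percentile of its list, while SEP3 RNA in clf-29 was at 45.4 and 90.3 CPM. In Col-0 replicate 1 the whole body was covered at a score of 293.2 (74.1 percentile of its list), with RNA at 0.704 and 1.22 CPM. The peak was 4685 bp long in Col-0 replicate 1 and 2812 bp in clf-29 replicate 1. It covered 55.1% and 24.9% of the 1000 bp upstream. The second lists of Col-0 and clf-29 had no peak at SEP3. The tfl2-2 and lhp1-6 lists covered 93.1% and 62.8% of the body, and 3.3% and 0.0% of the 1000 bp upstream. RNA and chromatin came from separate samples. The 60 coding bases of SEP3 given above lay inside a peak in the 6 lists that had one on the gene.

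SEP4 had a shorter marked stretch in 4 of the mutant lists. In Col-0 its peak ran from -94 bp and -123 bp, relative to the gene start, to 2475 bp and 2524 bp, over 94.9% and 96.7% of the body. It covered 42.1% and 38.4% in clf-29, 37.7% in tfl2-2 and 39.3% in lhp1-6. In the first lists of atbmi1a,b and atring1a,b it covered 99.7% and the whole body, and their second lists had no SEP4 peak. The scores were low in most lists, at the 20.4 and 39.6 percentiles in Col-0, 16.2 and 4.5 in clf-29, 17.2 in tfl2-2 and 38.9 in lhp1-6. They were at the 53.0 percentile in atbmi1a,b replicate 1 and 84.3 in atring1a,b replicate 1. Whether the peak ends depend on the score was not tested. The 4 shorter peaks ended 1242, 1001, 982 and 1114 bp from the gene start. Those ends all lay in the first intron, which ran between the last base of exon 1 at 577 bp and the first of exon 2 at 1346 bp in the transcript with the longest coding sequence. Of the 1531 genes covered by at least 90% in both Col-0 lists, 11.0% were under 50% in clf-29 replicate 1, 13.1% in clf-29 replicate 2, 4.57% in tfl2-2 and 8.62% in lhp1-6, and 28 (1.83%) were under 50% in all 4, of which 3 (0.196% of the 1531) were above 0 in all 4. These cutoffs were chosen after the SEP4 values were seen, and the difference was not tested. SEP4 RNA in the same mutants was 27.2 to 45.4 CPM, against 13.1 and 23.2 CPM in Col-0, without a call.

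The marked stretch of the other members differed by list. AGL6 was covered to 92.1% and in full in the Col-0 lists, to 45.8% and 91.3% in clf-29, 95.2% in tfl2-2 and 70.9% in lhp1-6. AGL13 was covered in full in both Col-0 lists and in clf-29 replicate 2, to 66.4% in clf-29 replicate 1, 97.7% in tfl2-2 and 83.9% in lhp1-6. The LHP1-mutant lists had split peaks over 4 members: SEP1 in tfl2-2 (gap between 1148 and 1381 bp from its start), SEP2 in tfl2-2 (825 to 870 bp), SEP3 in lhp1-6 (710 to 769 bp) and AGL13 in tfl2-2 (639 to 693 bp) and lhp1-6 (728 to 845 bp). These gaps fell within the first introns, which began after 670 bp in SEP1, 648 bp in SEP2, 445 bp in SEP3 and 244 bp in AGL13. Peaks were shorter in both LHP1-mutant lists as a whole, with medians of 1441 bp (tfl2-2) and 961 bp (lhp1-6) against 1760 and 2299 bp in Col-0. The share of all genes with a split peak was not counted. In SEP2 the start of the peak varied between lists. It was at -1759 bp for Col-0 replicate 1, at -1090 and -843 bp for the clf-29 lists, at -33 bp for tfl2-2 and at -510 bp for lhp1-6. The first atbmi1a,b and atring1a,b lists had it at -783 and -1676 bp.

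**Figure D4:**
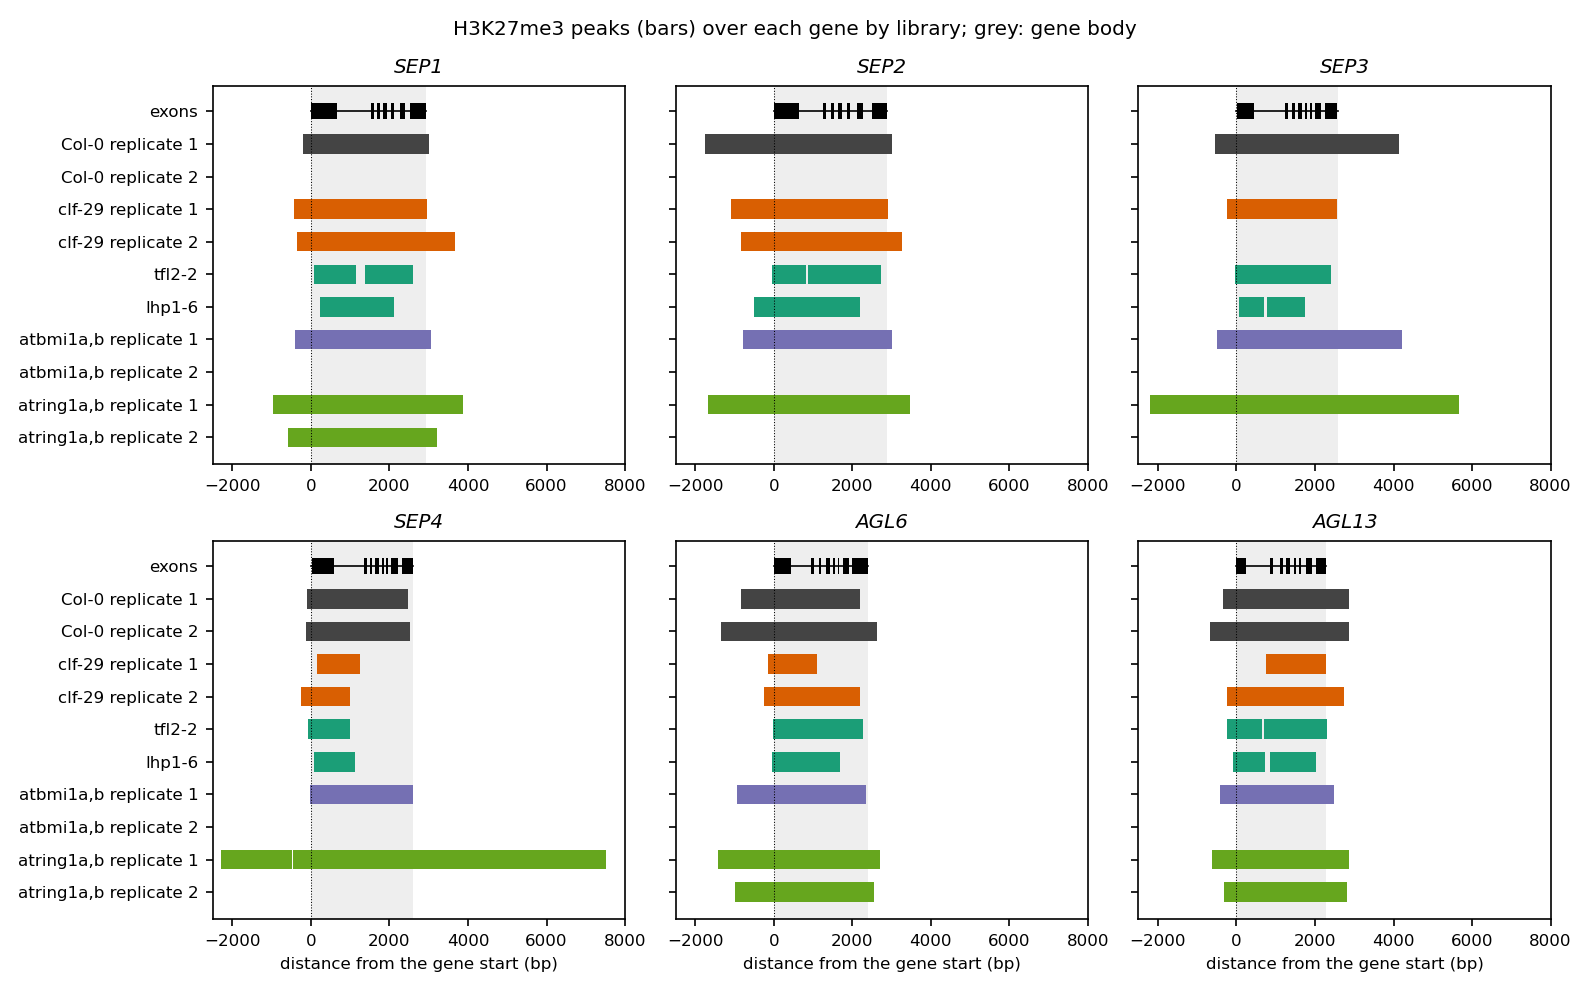
H3K27me3 peaks (bars) over each gene by ChIP-seq library, as distance from the gene start in bp, with the gene body in grey and the exons in black. At SEP4 the bars of clf-29, tfl2-2 and lhp1-6 end between 982 and 1242 bp, against 2475 and 2524 bp in Col-0.

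The upstream DNA was searched for 3 motifs on both strands, from 250 bases before to 50 bases after each gene start. The CArG box, the site MADS-domain dimers bind, was found in 0 of the 6 windows and in 3.05% of the 27443 protein-coding promoters of the same length. The telo box AAACCCT, a motif known in PcG targets, was in 0 of 6 and in 2750 of the 27443. The repeat GAGAGA was in 4 of 6 (SEP2, SEP3, SEP4 and AGL13) and in 29.2%. SEP3 was called in 3 mutant groups, and SEP4 peaks covered 37.7% to 42.1% of its body in the clf-29, tfl2-2 and lhp1-6 lists. Other members also had shorter peaks in some of these lists. The 250 bases before SEP3 and SEP4 are shown, with capitals at the GAGAGA matches on either strand:
SEP3 (chr1:8596124-8596373, minus strand): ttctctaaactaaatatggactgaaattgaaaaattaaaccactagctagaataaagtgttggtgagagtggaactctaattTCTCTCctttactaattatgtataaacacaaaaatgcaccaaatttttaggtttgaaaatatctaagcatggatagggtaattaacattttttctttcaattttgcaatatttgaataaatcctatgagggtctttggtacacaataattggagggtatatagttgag
SEP4 (chr2:1128979-1129228, plus strand): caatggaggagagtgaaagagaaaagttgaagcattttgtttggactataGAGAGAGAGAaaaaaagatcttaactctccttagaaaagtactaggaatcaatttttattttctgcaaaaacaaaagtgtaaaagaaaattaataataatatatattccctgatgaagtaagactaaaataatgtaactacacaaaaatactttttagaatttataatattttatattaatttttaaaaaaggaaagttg
The SEP4 run held overlapping matches from position -200, outside the peak in either Col-0 list, and the SEP3 match began at -168, inside the Col-0 replicate 1 peak that began at -551 bp. A match says only that the letters are present.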

How the data were processed

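RNA-seq counts per gene were deposited by the authors as whole numbers for each library, from reads mapped to TAIR10 and counted with HTSeq; the strand setting is not given in the sources used here. Between 2.656% and 3.433% of counts named no gene and were left out. H3K27me3 peak lists with a score per peak were deposited by the authors for each library from MACS; replicates were not pooled. The 5 samples without antibody were not analysed here. The authors' table of single-library fold changes and p-values was not used. Of the 33602 genes, 32835 (97.7%) matched the RefSeq annotation of TAIR10.1, whose gene models may differ from those of TAIR10.

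Counts were divided by the gene total to give CPM, and by exon length to give RPKM. edgeR 4.0.16 quasi-likelihood tests (robust, TMM factors, filterByExpr, all 14 libraries, 7 genotype coefficients) gave log2 fold changes; SE was the fold change over the root of F. A gene was called at a Benjamini-Hochberg adjusted p under 0.05 over 22060 genes, and beside it a looser criterion (log2 fold change beyond 1, unadjusted edgeR p under 0.05), where the study used DESeq. With 2 libraries per genotype, p-values rest on a spread estimated over all 14 libraries and shared among genes, not on the libraries compared alone. Fits of the compared libraries alone called 0 genes in clf-29, the LHP1 mutants, atbmi1a,b and atring1a,b against Col-0. On simulated counts for clf-29 against Col-0 and 3 other comparisons, 83.3% to 87.9% of genes changed by 3 on the log2 scale were recovered. Recovery among genes with few counts in Col-0, such as SEP1, SEP2 and AGL6, was not tested. In the data, SEP3 in clf-29 (log2 fold change 6.14) was called against Col-0. AGL6 in clf-29 (3.74) and SEP1 and SEP2 in atring1a,b (4.47 and 3.67) were not. A gene had a peak if 1 bp of its body or the 1000 bp upstream was covered. Ratios against few counts had exact (Clopper-Pearson) 95% intervals, which cover counting error only. Alternatives were RLE factors, DESeq2 1.42.0, no filter, a temperature term, a term for replicate 2 of 4 genotypes, a replicate block, the compared libraries alone, each library left out, other peak rules, and 2 added after seeing the data (the swn libraries summed, and clf-29swn-21 left out). Named genes were the 6 members, the 3 genes most like each, the nearest gene with a count on each side, the mutated genes, and up to 4 called genes with the largest change in each fixed list. Members and lists were chosen with earlier results of these data known.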

Additional observations from a re-analysis of the deposited data

How the results depend on the processing

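Direction was kept in most alternatives, but calls with 2 libraries per group were fragile. Fitting only the libraries compared gave 0 called members for the LHP1 mutants, clf-29 and atbmi1a,b against Col-0, and for clf-29 against atbmi1a,b and swn, and the SEP4 call in clf-29swn-21 was lost as well. By the looser criterion (log2 fold change beyond 1, unadjusted edgeR p under 0.05) the members called against Col-0 were 3 in clf-29, 5 in the LHP1 mutants, 2 in atring1a,b and 2 in atbmi1a,b, with 3 for clf-29 against the LHP1 mutants, 4 for clf-29 against swn and 3 for atring1a,b against atbmi1a,b. DESeq2 tested 27703 genes. It called 2 members in atring1a,b (826 of all genes) and 2 for clf-29 against the LHP1 mutants (145). It called 2 for clf-29 against swn (343) and 1 for atring1a,b against atbmi1a,b (435). A temperature term called 1 in atring1a,b (463 of all 22060 genes, against 309 without it) and 2 for clf-29 against swn (22, against 5). The term for replicate 2 of 4 genotypes called 1 in atring1a,b (744 of all genes) and 2 for clf-29 against swn (4297). It called 2 for atring1a,b against atbmi1a,b (266, against 34 without it). With the swn libraries summed, or with clf-29swn-21 left out, both chosen after seeing the data, the LHP1 mutants called 1 and atbmi1a,b 0, and summing gave 0 for clf-29 against swn. The causes were not tested.

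With a replicate block (12 libraries, the LHP1 mutants left out) the members called were 0 in atbmi1a,b (136 of all 21978 genes) and 0 for clf-29 against swn (3). The SEP4 change in atbmi1a,b had an edgeR adjusted p of 0.0618. The block moved no other count by over 1.5 times. Comparisons with the LHP1 mutants could not be paired, because their numbers name alleles. Deviations of libraries of the same number correlated at 0.272 to 0.761 among the 6 pairs of atring1a,b, atbmi1a,b, clf-29 and Col-0 and at -0.135 to 0.0641 over the other 9 pairs. In Col-0, clf-29, atbmi1a,b, atring1a,b and clf-29swn-21, number 1 was grown at 21 °C and number 2 at 22 °C. The labels do not say that a number marks a batch.

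Leaving out each library in turn gave 0 to 1 called members in clf-29, 1 to 2 in the LHP1 mutants, 0 to 1 in atbmi1a,b, 0 to 1 in atring1a,b and 4 to 5 in clf-29swn-21 against Col-0. It gave 1 to 2 for clf-29 against atbmi1a,b, 0 to 1 against swn, 3 to 5 for clf-29swn-21 against clf-29 and 3 against atring1a,b. Direction turned only in values that were not called. Under the temperature term SEP2 in swn gave 0.21. With a library left out, log2 fold changes ranged from -0.29 to 1.35 for AGL13 in the LHP1 mutants, from -1.5 to 5.84 for SEP1 and from -1.3 to 0.56 for AGL6 in atbmi1a,b, and from -0.48 to 0.95 for AGL6 in atring1a,b. In swn they ranged from -5.65 to 3.99 for SEP1, -3.72 to 3.47 for SEP2, -0.61 to 0.18 for SEP4 and -0.63 to 0.75 for AGL13. Peak counts at a score of at least 100 were 0 in the second lists of Col-0 (9.44% of all genes), clf-29 (18.6%) and atring1a,b (3.76%). At any score, the second list gave 3 members for Col-0 (15.6% of all genes), 0 for atbmi1a,b (19.1%) and 3 for atring1a,b (10.4%). The first lists gave 6 each (21.4%, 17.8% and 35.9%). SEP4 in swn was 10.9 RPKM with TMM sizes, a move larger than the SD of its 2 libraries. Few counts limit SEP1, SEP2 and AGL6 in Col-0 (13, 3 and 4 counts over both libraries). Leaving out a library to a group of 1 assumes that the lone library varies like the other groups.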
